A study of Mus musculus with 4 samples.

Results

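Sterol synthesis and its control by sterol regulatory element-binding proteins (SREBPs) were followed in mouse bone marrow-derived macrophages, primary cells matured from marrow in culture. The set holds 30 of the 23284 gene symbols in the deposited files: enzymes of sterol synthesis, the proteins that control SREBPs, and lipid synthesis genes that SREBPs drive. The genes were chosen by name, and all 30 were found, Msmo1 under an older symbol. The cells came from wild-type mice, and every culture received lipopolysaccharide (LPS), a bacterial outer membrane component that Toll-like receptor 4 senses, for 1 h at 1 µg/ml. The treated group then had recombinant mouse galectin-1, a lectin that binds galactosides, for 24 h, at a dose that the sources used here do not state. The vehicle group had phosphate-buffered saline for the same time. RNA sequencing gave 2 libraries in each group; cells without LPS were not analysed here.

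Cells make cholesterol from acetyl-CoA through mevalonate, farnesyl diphosphate, squalene and lanosterol. The SREBP transcription factors are held in the endoplasmic reticulum by Scap and the Insig proteins while sterols are plentiful; when sterols fall, Scap carries them to the Golgi, where they are cut, and the freed part enters the nucleus and drives nearly every gene of this route. Srebf2 encodes the form that mainly serves sterol genes, and Srebf1 encodes forms that mainly serve fatty acid genes. In macrophages, Toll-like receptor and interferon signals are known to alter both branches, and oxysterols such as the product of Ch25h hold SREBPs inactive.

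SREBPs bind sterol regulatory elements beside sites for NF-Y and Sp1, so promoters of the set were read from the RefSeq promoter table (build GRCm38.p6), which held windows of 300 bases for 23 of the 30 genes. The sterol element TCACNCCAC was found in 1 of them, Hmgcs1, at position -137 from the start. The shorter TCACNCCA, searched after the sequences had been seen, was also found in Srebf2 and Msmo1. Below are the 250 bases before the start of Hmgcs1 (chr13:119690101-119690350, plus strand), shown for its sterol element, and of Sc5d (chr9:42264301-42264550, minus strand) and Srebf2 (chr15:82147019-82147268, plus strand), shown because their transcripts were among those of lowest p. Capitals mark TCACNCCAC or TCACNCCA, the E-box CACGTG, the NF-Y letters CCAAT and the Sp1 letters GGGCGG, on either strand.
Hmgcs1: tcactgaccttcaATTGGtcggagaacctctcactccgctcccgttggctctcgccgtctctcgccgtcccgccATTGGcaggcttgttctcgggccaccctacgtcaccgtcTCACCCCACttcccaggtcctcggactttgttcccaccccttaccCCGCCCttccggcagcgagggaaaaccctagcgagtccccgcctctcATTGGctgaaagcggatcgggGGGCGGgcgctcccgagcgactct
Sc5d: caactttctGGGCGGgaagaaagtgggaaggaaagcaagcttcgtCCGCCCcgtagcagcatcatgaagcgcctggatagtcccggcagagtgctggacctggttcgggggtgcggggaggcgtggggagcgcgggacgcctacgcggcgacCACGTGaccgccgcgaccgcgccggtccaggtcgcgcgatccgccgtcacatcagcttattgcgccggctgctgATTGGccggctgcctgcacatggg
Srebf2: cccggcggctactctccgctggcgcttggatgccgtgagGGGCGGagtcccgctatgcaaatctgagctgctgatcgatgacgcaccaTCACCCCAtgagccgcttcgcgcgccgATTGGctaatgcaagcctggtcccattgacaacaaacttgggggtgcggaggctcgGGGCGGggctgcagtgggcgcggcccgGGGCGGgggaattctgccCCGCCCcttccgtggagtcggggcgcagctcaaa

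CCAAT was found in 65.5% of the 29 windows of these genes and in 37.4% of all 32851 windows in the table. GGGCGG was found in 79.3% of the windows of these genes and in 35.7% of all. CACGTG was found in 20.7% and 7.15%, TCACNCCA in 10.3% and 4.36%, and TCACNCCAC in 3.45% and 1.24%. TCACNCCA lies within TCACNCCAC, several genes have overlapping windows, and a match of letters does not show binding.

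The deposited values were read as FPKM, fragment numbers scaled to transcript length and library size, because the files have a Cufflinks-style header and Cufflinks is named in the submitters' processing notes. No label states the unit, and comparisons of levels between genes rest on it. Library totals were 557661 and 555507 FPKM with galectin-1 and 553191 and 541138 FPKM with vehicle, and depths estimated from low genes were 0.879 to 1.02 of that of vehicle replicate 1; the absolute depth is unknown. On the log2 scale the galectin-1 libraries correlated at a Pearson r of 0.988 across genes, the vehicle libraries at 0.983, and pairs across groups at 0.979 to 0.986. All 8 macrophage markers were present, and Lyz2, which encodes lysozyme, had 6269 and 6223 FPKM with galectin-1 and 5761 and 5642 FPKM with vehicle. The 5 adipocyte markers (Adipoq, Plin1, Lep, Cidec, Cfd), from a lipid-storing cell of the marrow, were listed at 0 in all 4 libraries. The T cell markers Cd3e and Cd3g were also listed at 0, while Lck had 20.5 to 21.4 FPKM. The labels do not say whether replicates are separate animals or cultures, and p-values rest on a spread that may be technical.

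The question was whether galectin-1 changes the sterol and lipid synthesis programme of LPS-stimulated macrophages, and none of the 30 genes was called. Differences were tested with limma on log2(FPKM + 1) over the 9380 genes that averaged 1 FPKM or more, with a 2-sided Benjamini-Hochberg adjusted p under 0.05. Of the 30 genes, 27 reached that minimum, 0 were called higher and 0 lower in limma, where 1.19% of all tested genes were called, 0.608% (57) higher and 0.586% (55) lower. After quantile normalization 24 genes were called higher and 47 lower, and still 0 of the 27. An unadjusted p under 0.05 was found for 4 of the 27, or 14.8%, against 23.2% of all tested genes. These were Fdft1, Sc5d, Scd2 and Srebf2, all with higher values with galectin-1, a direction in which 12.2% of all tested genes had such a p. On the lower side 0 of the 27 had such a p in limma, against 1028 of the 9380 tested genes. Without galectin-1 replicate 1, 2 of the 27 had such a p on the higher side. The groups did not overlap for 12 of the 27, 10 with galectin-1 above and 2 with galectin-1 below, or 44.4% against 55.4% of all tested genes. With galectin-1 above, the members' share was 37.0% against 29.1% of all tested genes, and with galectin-1 below it was 7.41% against 26.2%.

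The differences were small, and their intervals bound them. The 27 log2 fold changes ran from -0.11 to 0.26 with a median of 0.06, beside a median of 0.0024 over all tested genes. Of the 27, 17 were positive, or 63.0% against 50.7% of all tested genes. The median was 0.03 without galectin-1 replicate 2. The 95% intervals of the 27 reached at most 0.46 upwards (Acat2) and -0.43 downwards (Nsdhl). In this fit each therefore excluded a change of 1.5-fold on this scale, which understates the change of low genes. The upper bound of Acat2 passed 1.5-fold when galectin-1 replicate 2 or vehicle replicate 1 was left out. Tm7sf2, outside the 27, was tested when vehicle replicate 2 was left out, and its upper bound of 0.64 also passed 1.5-fold. With a pseudocount of 0.1 in place of 1 the outermost bounds were 0.77 (Dhcr7) and -0.72 (Cyp51). The median half-width of the 27 intervals was 0.23, close to the size of the largest differences found.

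**Figure D1:**
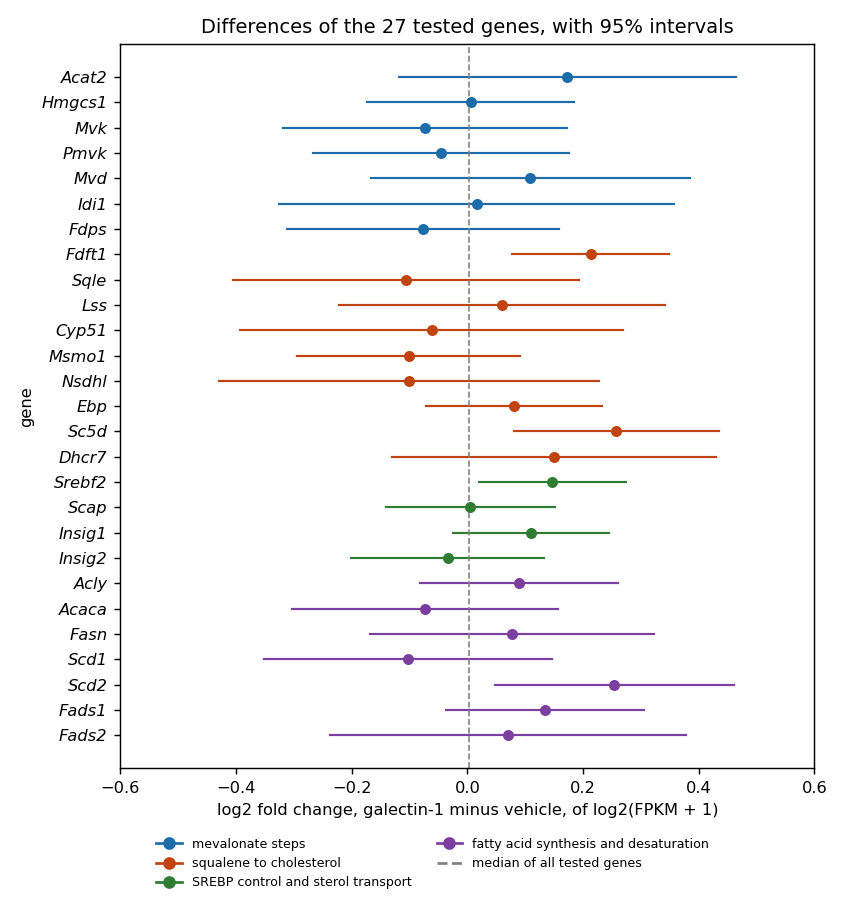
Log2 fold change, galectin-1 minus vehicle, of log2(FPKM + 1) for the 27 tested genes (points, n = 2 libraries per group) with 95% limma intervals (lines), coloured by role; the dashed line is the median of all tested genes. The intervals of Fdft1, Sc5d, Srebf2 and Scd2 lie above 0, and none of the 27 reaches 0.5 in either direction.

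Levels differed far more between genes than between groups. The median level of the 30 genes was 2.87 FPKM, while that of the 9380 tested genes was 9.37 FPKM. Of the 30 genes, 6 averaged 10 FPKM or more, 21 lay between 1 and 10 FPKM, and 3 lay under 1 FPKM. The 6 were Fdft1 (33.6 FPKM), Acly (23.6 FPKM), Insig1 (22.98 FPKM), Srebf2 (18.9 FPKM), Insig2 (16.5 FPKM) and Ebp (14.1 FPKM). The library values of Acly and Insig1 overlapped, so these genes cannot be ordered; the other neighbours in this order did not overlap in the 4 libraries. The 3 under 1 FPKM were Tm7sf2, Hsd17b7 and Stard4.

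**Figure D2:**
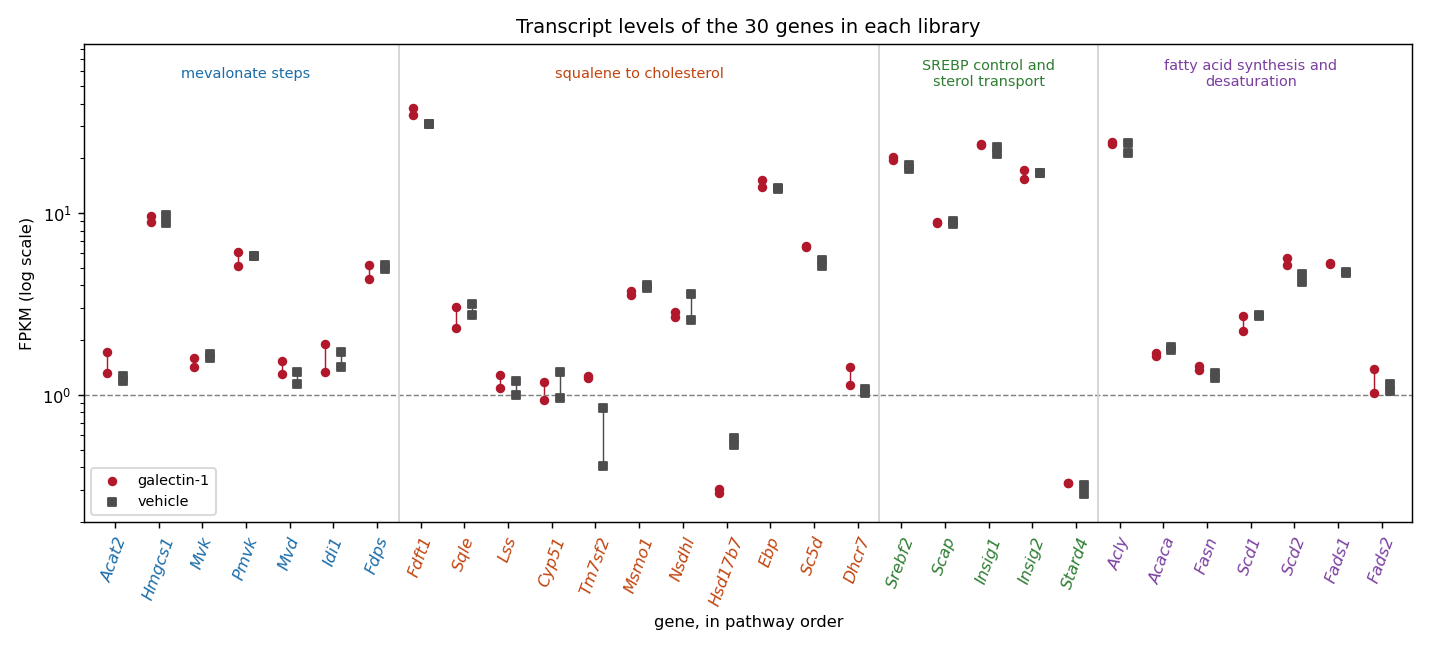
FPKM on a log scale for each of the 30 genes in pathway order, with the 2 galectin-1 libraries (circles) left of the 2 vehicle libraries (squares) and a thin line joining libraries of a group; the dashed line is the minimum of 1 FPKM used for testing. Fdft1, Acly, Insig1, Srebf2, Insig2 and Ebp sit above 10 FPKM, most enzymes lie between 1 and 10 FPKM, and the groups lie farthest apart, as a ratio, for the low genes Tm7sf2 and Hsd17b7.

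The mevalonate steps showed no change past the test: 0 of 7 tested genes were called, and their median log2 fold change was 0.0056, or -0.049 to 0.067 with 1 library left out. Their summed level was 25.03 and 26.4 FPKM in the galectin-1 libraries and 26.45 and 25.1 FPKM in the vehicle libraries. Hmgcs1, which makes HMG-CoA and carries the sterol element printed above, had 9.65 and 8.96 FPKM with galectin-1 and 9.70 and 8.83 FPKM with vehicle. Its groups overlapped and its log2 fold change was 0.0056, with a 95% interval of -0.17 to 0.18, so 2 libraries of the same group differed more than the groups did. Pmvk, phosphomevalonate kinase, averaged 5.69 FPKM over the 4 libraries, and Fdps, which makes farnesyl diphosphate, 4.89 FPKM, with log2 fold changes of -0.04 and -0.08. Of the exonic bases of Fdps, 77.4% are shared in GENCODE M21 with a same-strand protein-coding gene, Gm43738, from which strand cannot separate its reads. Idi1, which isomerises isopentenyl diphosphate, averaged 1.596 FPKM and Mvk, mevalonate kinase, 1.57 FPKM, with log2 fold changes of 0.02 and -0.07.

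The largest differences among the mevalonate steps belonged to low genes. Acat2, the cytosolic thiolase that joins acetyl-CoA units, had 1.72 and 1.32 FPKM with galectin-1 and 1.27 and 1.19 FPKM with vehicle (log2 fold change 0.17, standard error 0.12, limma adjusted p = 0.430). Its groups did not overlap, but the galectin-1 libraries lay farther apart from each other than replicate 2 lay from the vehicle group. Acat3, a close relative beside it on chromosome 17, averaged 8.89 FPKM, and the sources used here do not say how reads were divided between them. Mvd, which decarboxylates mevalonate diphosphate, had 1.30 and 1.54 FPKM with galectin-1 and 1.34 and 1.15 FPKM with vehicle (0.11, standard error 0.11, limma adjusted p = 0.5997), with overlapping groups.

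From squalene to cholesterol, 0 of 9 tested genes were called, and the 2 lowest p-values of the 27 tested genes were found here. Fdft1, squalene synthase, which commits farnesyl diphosphate to sterols, had 37.9 and 34.4 FPKM with galectin-1 and 31.03 and 31.01 FPKM with vehicle. Both galectin-1 libraries lay above both vehicle libraries, and the vehicle libraries were nearly equal. The means were 36.2 ± 2.42 and 31.0 ± 0.0087 FPKM with galectin-1 and with vehicle (SD, n = 2 each; log2 fold change 0.21, standard error 0.06, limma unadjusted p = 0.00861, adjusted p = 0.108). Fdft1 (chr14:63145150-63181687, minus strand) shares 774 exonic bases, 20.9% of its exonic length in GENCODE M21, with the opposite-strand gene Ctsb, which encodes the lysosomal protease cathepsin B. Ctsb had 2710 and 2767 FPKM with galectin-1 and 2617 and 2631 FPKM with vehicle (0.06, limma adjusted p = 0.221). The library kit keeps strand, but the sources used here do not say whether counting used strand, so reads of Ctsb in the level of Fdft1, the highest of the set, were not tested.

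Sc5d (chr9:42251592-42264300), a sterol desaturase near the end of the route, had 6.53 and 6.54 FPKM with galectin-1 and 5.53 and 5.09 FPKM with vehicle. The galectin-1 libraries were nearly equal and both lay above the vehicle libraries (means 6.54 ± 0.0081 and 5.31 ± 0.312 FPKM with galectin-1 and with vehicle, SD, n = 2 each). Its log2 fold change of 0.26 was the highest of the 27 (standard error 0.07, limma unadjusted p = 0.0120, adjusted p = 0.121). Without vehicle replicate 2 it was 0.21 with an unadjusted limma p of 0.0641. Beside it in the route, Ebp, the sterol isomerase that acts before it, had 13.9 and 15.2 FPKM with galectin-1 and 13.8 and 13.6 FPKM with vehicle (0.08, limma adjusted p = 0.472). Dhcr7, a reductase at the end of the route, had 1.42 and 1.14 FPKM with galectin-1 and 1.07 and 1.02 FPKM with vehicle (0.15, limma adjusted p = 0.470). Whether the differences of Sc5d, Ebp and Dhcr7 are unequal was not tested.

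Sqle, squalene epoxidase, a rate-limiting enzyme of the sterol branch, had 3.02 and 2.34 FPKM with galectin-1 and 2.75 and 3.15 FPKM with vehicle, with overlapping groups and a log2 fold change of -0.11 (95% interval -0.40 to 0.19). Msmo1, the monooxygenase that starts the removal of methyl groups at carbon C4, had 3.72 and 3.52 FPKM with galectin-1 and 3.87 and 4.04 FPKM with vehicle. It was 1 of the 2 tested genes with both galectin-1 libraries below both vehicle libraries, at a log2 fold change of -0.10 (limma adjusted p = 0.477). Nsdhl, the dehydrogenase of the same demethylation, averaged 2.93 FPKM (log2 fold change -0.10). Lss, lanosterol synthase, averaged 1.14 FPKM and Cyp51, lanosterol demethylase, 1.10 FPKM, with log2 fold changes of 0.06 and -0.06 and overlapping groups.

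The low genes Tm7sf2 and Hsd17b7 differed in opposite directions. Tm7sf2, a sterol reductase, had 1.26 and 1.23 FPKM with galectin-1 and 0.848 and 0.409 FPKM with vehicle, and the vehicle libraries were about as far from each other as the upper one was from the galectin-1 libraries. Hsd17b7, the keto-reductase that completes demethylation, had 0.288 and 0.302 FPKM with galectin-1 and 0.527 and 0.578 FPKM with vehicle, a ratio of the means of 0.534 with replicates close together. Both averaged under the minimum of 1 FPKM over all libraries. Tm7sf2 reached that minimum, and was also tested, when vehicle replicate 2 was left out. A fit with no minimum, which held 15097 genes, tested both and was the only one to test Hsd17b7. There the log2 fold change was 0.48 for Tm7sf2 (standard error 0.15, limma adjusted p = 0.248) and -0.26 for Hsd17b7 (standard error 0.05, adjusted p = 0.170). The adjusted p of Hsd17b7 was the lowest of the 30 genes in that fit. Unadjusted limma p-values there were 0.0281 for Tm7sf2, 0.00512 for Hsd17b7, 0.0137 for Fdft1 and 0.0188 for Sc5d. The sum over the 11 genes of this branch, dominated by Fdft1, was 72.9 and 69.8 FPKM with galectin-1 and 64.5 and 64.45 FPKM with vehicle.

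Among the genes of SREBP control, 0 of 4 tested were called. Srebf2 (chr15:82147269-82205379, plus strand) had 19.5 and 20.2 FPKM with galectin-1 and 18.3 and 17.4 FPKM with vehicle. All 4 libraries lay within a narrow range with the galectin-1 pair on top (means 19.9 ± 0.482 and 17.8 ± 0.608 FPKM with galectin-1 and with vehicle, SD, n = 2 each). The log2 fold change was 0.15 (standard error 0.05, limma unadjusted p = 0.0294, adjusted p = 0.169), and the unadjusted limma p was 0.0350 to 0.128 when 1 library was left out. Scap, the escort of SREBPs, averaged 8.86 FPKM with a log2 fold change of 0.0048 (95% interval -0.14 to 0.15). Stard4, which carries cholesterol between membranes, lay near the floor at 0.327 and 0.327 FPKM with galectin-1 and 0.285 and 0.321 FPKM with vehicle and was not tested at the minimum of 1 FPKM.

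The Insig proteins retain the Scap-SREBP complex, and Insig1 is itself an SREBP target, whereas Insig2 is regulated differently. Insig1 had 24.0 and 23.8 FPKM with galectin-1 and 21.2 and 22.98 FPKM with vehicle (log2 fold change 0.11, standard error 0.05, limma adjusted p = 0.292). Insig2 had 17.3 and 15.3 FPKM with galectin-1 and 16.68 and 16.68 FPKM with vehicle (-0.03, standard error 0.07, limma adjusted p = 0.803). The galectin-1 values of Insig2 lay on either side of the vehicle values. The ratio of Insig1 to Insig2 was 1.39 and 1.55 with galectin-1 and 1.27 and 1.38 with vehicle, so the groups were separated by less than the spread within either. With 2 libraries in each group the smallest 2-sided p of an exact permutation test is 0.333, and no such test was run.

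In fatty acid synthesis and desaturation, 0 of 7 tested genes were called, with a median log2 fold change of 0.08, or 0.04 without vehicle replicate 1. Scd2 (chr19:44293676-44306864), a stearoyl-CoA desaturase, had 5.69 and 5.16 FPKM with galectin-1 and 4.59 and 4.17 FPKM with vehicle (means 5.42 ± 0.373 and 4.38 ± 0.296 FPKM, SD, n = 2 each). The groups did not overlap, at a log2 fold change of 0.25 (standard error 0.08, limma unadjusted p = 0.0241, adjusted p = 0.156). The unadjusted limma p was 0.119 without galectin-1 replicate 1 and 0.113 without vehicle replicate 2. Scd1, its relative on the same chromosome, had 2.71 and 2.24 FPKM with galectin-1 and 2.70 and 2.76 FPKM with vehicle, which overlapped (-0.10, standard error 0.10, limma adjusted p = 0.579). The ratio of Scd2 to Scd1 was 2.09 and 2.30 with galectin-1 and 1.70 and 1.51 with vehicle, without overlap. The genes are near relatives, and reads may be divided between them.

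Fads1, the desaturase that makes arachidonate in the polyunsaturated route, had 5.33 and 5.23 FPKM with galectin-1 and 4.73 and 4.70 FPKM with vehicle. The replicates were close and the groups apart, yet the log2 fold change of 0.13 did not pass (standard error 0.07, limma unadjusted p = 0.102, adjusted p = 0.310). Its partner Fads2 averaged 1.15 FPKM (log2 fold change 0.07) with overlapping groups. Acly, which makes cytosolic acetyl-CoA from citrate for both branches, averaged 23.6 FPKM with a log2 fold change of 0.09. Acaca, acetyl-CoA carboxylase, averaged 1.73 FPKM and Fasn, fatty acid synthase, 1.34 FPKM, with log2 fold changes of -0.07 and 0.08 and limma adjusted p of 0.678 and 0.682. Acaca was the other tested gene with both galectin-1 libraries below both vehicle libraries.

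**Figure D3:**
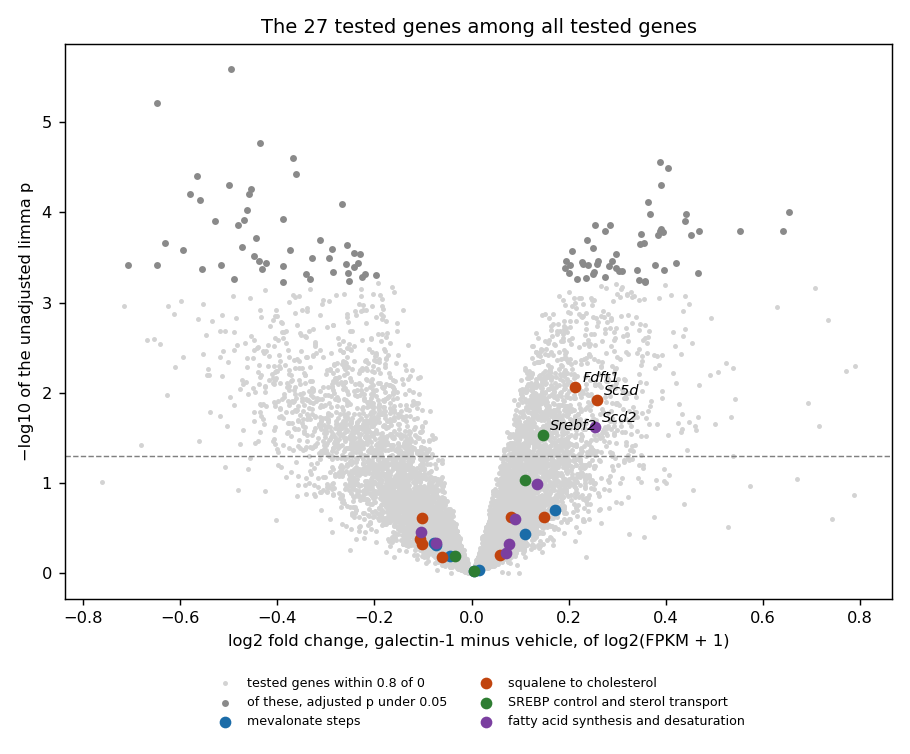
Log2 fold change (x axis, galectin-1 minus vehicle, of log2(FPKM + 1)) against −log10 of the unadjusted limma p (y axis) for tested genes within 0.8 of 0 (light grey), those called at an adjusted p under 0.05 (dark grey) and the 27 tested genes by role; the dashed line marks an unadjusted p of 0.05. Fdft1, Sc5d, Scd2 and Srebf2 lie above the line and under every called gene, on the side of higher values with galectin-1.

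Other genes of the pathway outside the 30 were read from a list of 27, of which 23 were tested. In limma 0 were called higher and 0 lower. An unadjusted limma p under 0.05 was found for 5, 4 higher and 1 lower, against 23.2% of all tested genes. Of the 23 log2 fold changes, 11 were positive and 12 negative. Their median log2 fold change was below 0.01 in size. Mid1ip1, whose product activates acetyl-CoA carboxylase, had 28.8 and 31.3 FPKM with galectin-1 and 24.8 and 24.6 FPKM with vehicle (0.28, standard error 0.05, limma adjusted p = 0.0694). It passed in a fit without small RNA entries, with an adjusted p of 0.0387 in limma. Ggps1, which makes geranylgeranyl diphosphate, and Elovl1, an elongase of very long fatty acids, had log2 fold changes of 0.19 and 0.11 with limma adjusted p of 0.165 and 0.171.

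Of 9 genes of sterol efflux and oxysterols, 1 rose and 8 did not pass, beside 0.608% of all tested genes called higher. Ch25h, the hydroxylase that turns cholesterol into an oxysterol, had 57.1 and 56.0 FPKM with galectin-1 and 38.0 and 43.5 FPKM with vehicle (0.47, standard error 0.07, limma adjusted p = 0.0453). The call was lost without vehicle replicate 1 (limma adjusted p = 0.0951), galectin-1 replicate 1 (0.151) or galectin-1 replicate 2 (0.188), and kept without vehicle replicate 2 (0.0327). It was also lost after quantile normalization (0.0629), with no minimum (0.147) and in limma without the trend (0.138). Abcg1, a sterol exporter, Apoe, the main apolipoprotein of macrophages, and Mylip, a ubiquitin ligase, had log2 fold changes of 0.12, 0.08 and 0.14 with limma adjusted p of 0.176, 0.195 and 0.238.

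**Figure D4:**
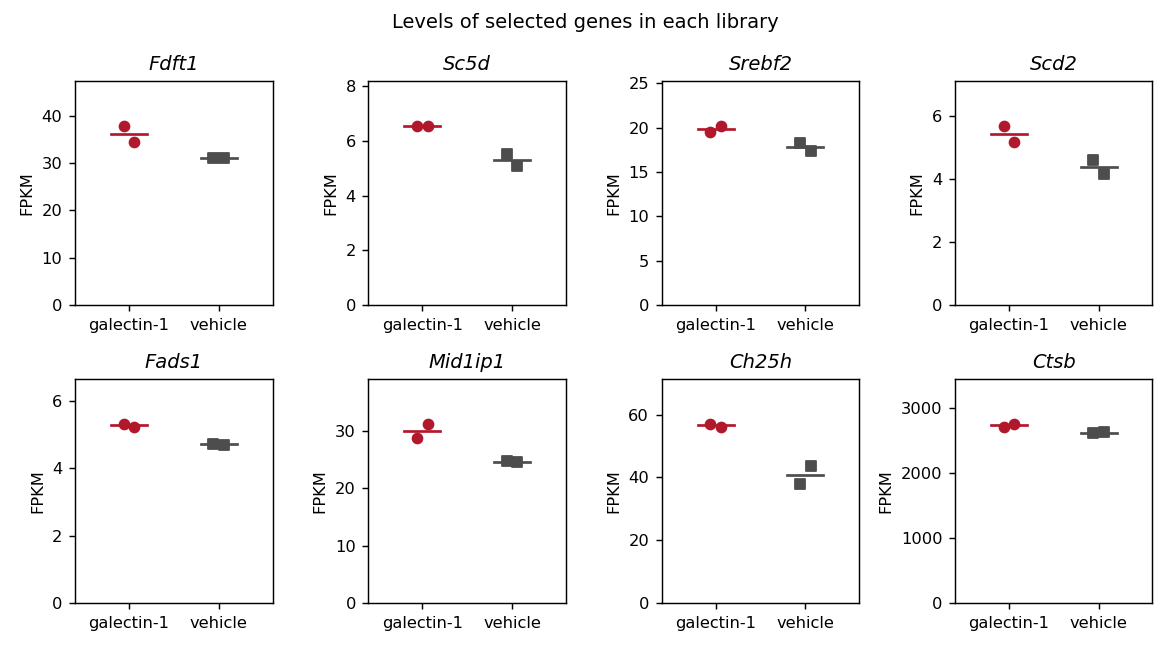
FPKM in each library for 4 genes of the set with an unadjusted p under 0.05 (Fdft1, Sc5d, Srebf2, Scd2), and for Fads1, Mid1ip1, Ch25h and Ctsb, with galectin-1 (circles) left of vehicle (squares) and a line at the mean of each group of 2. These genes were picked with their values known, and in every panel the groups do not overlap and galectin-1 lies higher. Groups did not overlap for 55.4% of all tested genes. Genes with galectin-1 below, such as Msmo1 and Acaca, have no panel.

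Markers of other cells and states differed between the groups beside these small differences, and their part was not tested. The 7 dendritic cell markers, dominated by Fscn1 and Ccl22, summed to 18.99 and 19.4 FPKM with galectin-1 and 24.3 and 24.3 FPKM with vehicle. Of the 7, 4 were tested and 1, Fscn1, was called lower in limma. Means were lower with galectin-1 for Fscn1, Ccl22 and Ccr7, and higher for Flt3, Zbtb46, Itgax and Xcr1. The defining gene Flt3 had at most 0.0478 FPKM. The 7 fibroblast markers summed to 17.8 and 17.3 FPKM with galectin-1 and 14.2 and 14.2 FPKM with vehicle, with 4 tested and 0 called in limma (1 at an unadjusted p under 0.05). Of the 8 macrophage markers, 7 had both galectin-1 libraries above both vehicle libraries, as had 29.1% of all tested genes. The median log2 fold change of the 8 was 0.11, with 0 called in limma. An unadjusted limma p under 0.05 was found for 6, 5 higher and 1 lower, against 23.2% of all tested genes. The lower 1 was Mertk, at a log2 fold change of -0.17. The 8 markers of cycling cells, dominated by Pcna, summed to 357 and 347 FPKM with galectin-1 and 329 and 323 FPKM with vehicle, with 0 of 7 tested called in limma and 2 at an unadjusted p under 0.05. Of the 2 nuclear RNAs listed, Neat1 had 44.9 and 44.2 FPKM with galectin-1 and 97.1 and 106 FPKM with vehicle (-1.17, limma adjusted p = 0.00174). The other, Malat1, had 66.86 and 78.65 FPKM with galectin-1 and 94.53 and 96.25 FPKM with vehicle. It was not called (-0.39, limma adjusted p = 0.0694). In bulk samples fewer cells of a type and less RNA per cell cannot be told apart.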

How the data were processed

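RNA of LPS-stimulated macrophages was extracted on columns and made into stranded poly(A) libraries, per the labels' protocols. The authors deposited a file for each library with a row for each gene symbol and values read here as FPKM, a unit that no label states. Cufflinks 2.2.1, SAMtools 0.1.19, Bowtie2 2.2.3, TopHat2 2.0.13 and the build mm10 are named, without roles, in the submitters' processing notes. The sources used here do not give the annotation, the use of strand, the handling of multi-mapping reads or any scaling between libraries.

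Groups and replicate numbers came from sample titles. The deposited FPKM values, unscaled, were taken to log2(FPKM + 1) for the 9380 genes that averaged 1 FPKM or more. Groups were compared in R 4.3.3 by limma 3.58.1 with a variance trend, 2 residual and 3.89 prior degrees of freedom, and Benjamini-Hochberg adjustment over all tested genes. The script was tested on simulated data, in 20 simulations of 9380 genes. It recovered 28.2% of changes simulated at a log2 fold change of 0.25, 79% at 0.5 and 99.6% at 1. False calls made up 7.26%. Changes as small as the largest ones seen in the set would thus often be missed. Depth ratios came from 1366 genes under 0.3 FPKM, so no counting intervals are given.

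The members, lists and tests were chosen with earlier results of these data known. Values per library are printed for members with an unadjusted p under 0.05, the 2 largest differences in each role and a few others described. Other genes of the pathway are named where called, or as the 4 of lowest p. Some of them are not reported here. Coordinates and promoters are from RefSeq, GRCm38.p6; exon overlaps are from GENCODE M21. Older symbols were matched through RefSeq synonyms. Alternatives were 2 scalings, 2 minima, a pseudocount of 0.1, a replicate block, no variance trend, no small RNA entries and each library left out.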

Additional observations from a re-analysis of the deposited data

How the results depend on the processing

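None of the 30 genes was called under any of the alternatives, and their lowest limma adjusted p was 0.0749. Of 307 refits of single tested members, 289 kept their direction and side of the threshold, and 18, all of members whose groups overlap, changed sign. With the replicate block, either other minimum, no small RNA entries or no variance trend, a log2 fold change stays as it was. In those refits only the side of the threshold could change. The number with an unadjusted p under 0.05 on the higher side was 2 to 4 with 1 library left out and 3 to 5 under the other settings. On the lower side 1 gene, Hsd17b7, had such a p with no minimum, the setting in which it was tested. The median log2 fold change of the members was 0.029 to 0.062 with 1 library left out, 0.086 with a pseudocount of 0.1 and 0.085 with a minimum mean of 5 FPKM, where 10 members were tested. Over all genes the 57 higher and 55 lower calls became 6 to 12 and 5 to 14 with 1 library left out, 1 and 2 with no minimum, and 127 and 99 with the minimum of 5 FPKM. There were 24 and 47 after quantile normalization, 189 and 176 without small RNA entries, and 1 and 1 in limma without the trend. With the replicate number as a block there were 123 and 117. Deviations of same-numbered samples correlated at 0.0114 across genes, and the labels do not say whether such samples share an animal or a batch. The cause of these moves in the numbers of calls was not tested. Sign changes with 1 library left out lie within these ranges of log2 fold changes: -0.056 to 0.067 for Hmgcs1, -0.15 to 0.059 for Pmvk, -0.14 to 0.17 for Idi1, -0.19 to 0.033 for Fdps, -0.24 to 0.029 for Sqle, -0.0070 to 0.13 for Lss, -0.19 to 0.062 for Cyp51, -0.28 to 0.077 for Nsdhl, -0.019 to 0.028 for Scap, -0.12 to 0.049 for Insig2, -0.0038 to 0.18 for Acly and -0.053 to 0.19 for Fads2. Those that kept their sign but moved by over 1.5 times ran from 0.059 to 0.29 for Acat2, 0.061 to 0.24 for Dhcr7, 0.039 to 0.18 for Mvd, 0.019 to 0.14 for Ebp, 0.053 to 0.17 for Insig1, 0.0496 to 0.105 for Fasn, -0.12 to -0.026 for Mvk and -0.20 to -0.0056 for Scd1. The median was 0.024 to 0.090 from squalene to cholesterol and 0.017 to 0.082 for SREBP control. Median-of-ratios scaling gave -0.0000831 for Hmgcs1 and -0.00092 for Scap. Precision is limited by 2 libraries in each group.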
